A study of Mus musculus with 12 samples.

Results

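The genes described here are 10 parts of the machinery that carries a cell through G1, taken from a list of mouse symbols: the D-type cyclins Ccnd2 and Ccnd3, their kinases Cdk4 and Cdk6, the E-type cyclins Ccne1 and Ccne2, the inhibitors Cdkn1b and Cdkn2c, the pocket protein gene Rb1 and the transcription factor gene E2f1. All 10 were found among the 55401 genes of the count table, and all 10 passed the filter on low counts. They were measured by RNA sequencing in mouse Th17 cells, the IL-17-producing helper T cells, which had been differentiated from naive T cells of wild-type lymph nodes. There were 3 libraries in each of 4 groups: Kira8 and Stattic together (Kira8+Stattic), Stattic alone, Kira8 alone, and no inhibitor (None). Inhibitors were given for 4 h. Kira8 inhibits the kinase and RNase IRE1alpha, an endoplasmic reticulum stress sensor, and Stattic inhibits the transcription factor STAT3. The labels give no age or sex of the mice, do not say whether None received a solvent, and do not say whether replicates were separate cultures or animals, so the p-values measure only how far these samples differ among themselves, a spread that may be technical.

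D-type cyclins bind CDK4 or CDK6 and phosphorylate the RB protein, which frees E2F factors to switch on genes of DNA synthesis. Cyclin E with CDK2 continues that phosphorylation. The protein of Cdkn1b, p27, holds back cyclin E-CDK2 and is plentiful in resting T cells. The protein of Cdkn2c, p18, is an INK4 inhibitor that binds CDK4 and CDK6. Antigen and cytokine signals raise cyclin D2 and CDK6 and lower p27 when T cells start to divide.

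Of the 12 libraries, Stattic replicate 2 and Kira8 replicate 2 were unlike the rest. The mitochondrial share of counts was 10.7% in the first and 61.5% in the second, and 3.38% to 5.22% elsewhere. Their total counts were 9.28 M and 19.8 M (M for megacounts), against 51.7 M to 85.9 M in the remaining 10. Values below come from a fit of the 10 libraries, with n = 3 for Kira8+Stattic and None and n = 2 for Stattic and Kira8, and levels are CPM, counts as a share of the library's megacounts after scaling by the trimmed mean of M values (TMM). Genes count as called where the quasi-likelihood test of edgeR gave an adjusted p (Benjamini-Hochberg over all 21239 genes tested) under 0.05, and log2 changes are given ± standard error. With all 12 libraries, edgeR called 0 of the 10 genes in any comparison, where it called 0.272% of all genes with Kira8+Stattic against None, 0.31% with Stattic and 0 with Kira8 or in the other 4 comparisons. There, 3 genes had an unadjusted p under 0.05 with Kira8+Stattic, 5 with Stattic and 3 with Kira8, beside 11.5%, 19.6% and 12.8% of all genes. On the same 12 libraries, limma voom with library quality weights called 6, 6 and 5 of the 10 genes. With Kira8 it also called more of all genes than the 4097 of the 10-library edgeR fit. Its shares of all genes are not given here, so its counts do not show that the 10 genes stand out. The 12-library values stand beside the 10-library values of the genes that changed most.

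The summed level of 8 T cell markers was 2340 to 2536 CPM in Kira8+Stattic, 2325 and 3107 in Stattic, 1923 and 2154 in Kira8 and 2326 to 3043 in None. Against None, 1 of them rose and 2 fell with Kira8+Stattic, 2 rose and 2 fell with Stattic, and 0 rose and 2 fell with Kira8. Cd3d rose with Kira8+Stattic and with Stattic (0.77 and 0.86), and Cd3e fell in each comparison (-0.74, -0.69 and -0.61). Markers of B cells were lower with the inhibitors. Their summed level over 8 genes was 20.9 to 46.2 CPM in Kira8+Stattic, 17.1 and 32.1 in Stattic, 51.4 and 60.0 in Kira8 and 149 to 166 in None. For 8 markers of CD8 T and NK cells it was 105 to 165, 171 and 238, 76.6 and 94.1, and 349 to 542 CPM in the same order of groups. Ncr1 of that list did not pass the filter and was not tested, at 0 in every inhibitor library of the 10 and at most 0.101 CPM in None. Of the same list, Klrb1c, at 0.0576 to 2.95 CPM over the 10 libraries, rose 7.43-fold with Kira8+Stattic and 13.3-fold with Stattic (adjusted p = 0.0103 and 0.00393). The summed level of 6 Th17 markers was 790 to 843 CPM in Kira8+Stattic and 743 and 767 in Stattic. It was 682 and 709 CPM in Kira8 and 699 to 2777 in None. Of these 6 markers, 1 rose and 4 fell with Kira8+Stattic, as many with Stattic, and 1 rose and 2 fell with Kira8. Rora was the riser in each (2.31, 2.16 and 1.66), and Il17a was among the fallen in each (-2.15, -2.26 and -2.24). Of 4 regulatory T cell markers, Ctla4 rose and Il2ra (-2.69 and -2.52), Foxp3 (-1.93 and -1.79) and Ikzf2 (-0.85 and -0.98) fell with Kira8+Stattic and with Stattic, while with Kira8 only Ctla4 was called, higher. Of 8 myeloid markers, Cd14 (2.01 and 2.45) and Cd68 (1.19 and 0.92) rose with Kira8+Stattic and with Stattic, and none was called with Kira8. In bulk RNA, fewer cells of a type and less RNA per cell cannot be told apart, and the part of these cells in the changes below was not tested.

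In all, the inhibitors moved the G1 genes in a mixed pattern, with Cdkn1b higher in each treatment, Ccnd2 and Cdk4 lower in each, and Cdk6 lower where Stattic was present. With Kira8+Stattic 5 of 10 were called against None, 2 higher and 3 lower, beside 40.8% of all genes tested (20.8% higher and 20% lower). With Stattic 6 were called, 3 higher and 3 lower, beside 39% of all genes (20.1% higher and 18.9% lower). With Kira8 6 were called, 2 higher and 4 lower, beside 19.3% of all genes (9.7% higher and 9.59% lower). The libraries did not overlap those of None for 7 genes with Kira8+Stattic, 9 with Stattic and 6 with Kira8, beside 54.1%, 58.3% and 47.8% of all genes. These comparisons share the None libraries. The median log2 change of the 10 was 0.07, 0.02 and -0.27 in the same order, against 0.09, 0.08 and 0.00 for all genes tested, so the genes did not move as a block.

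**Figure D1:**
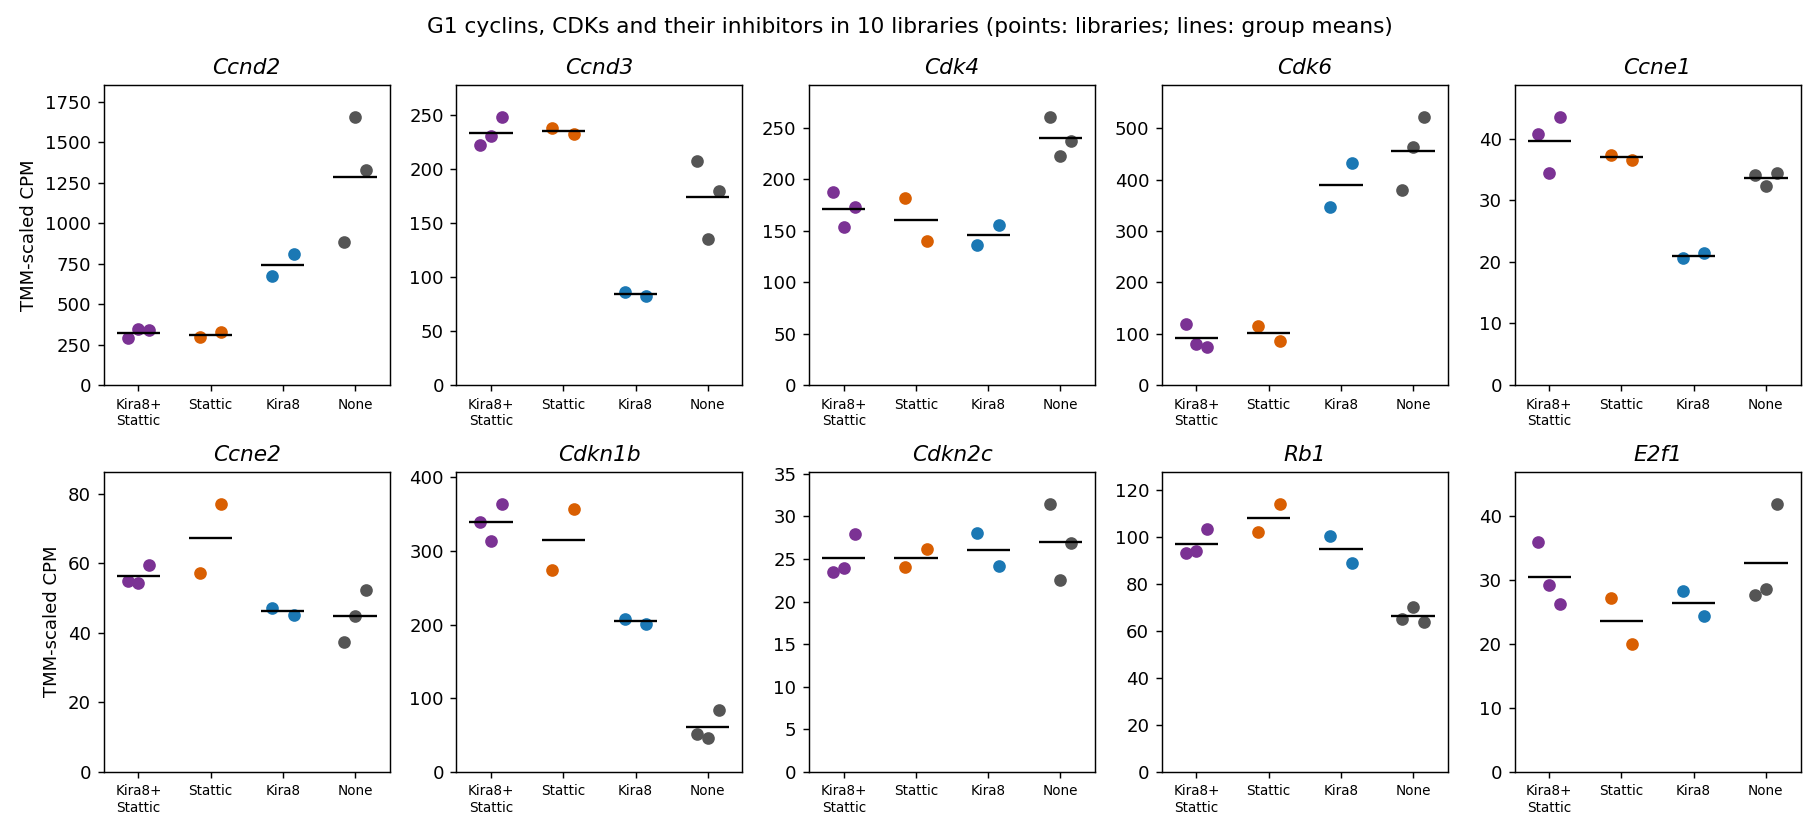
Level of each gene in each of the 10 libraries, in TMM-scaled CPM on axes that start at 0; points are libraries and lines are group means. Cdkn1b is higher in all 7 inhibitor libraries than in the 3 None libraries, and Cdk6 lies between 74.4 and 120 CPM in the 5 libraries with Stattic, against 347 to 522 CPM in the 5 without.

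Cdkn1b (ENSMUSG00000003031, chromosome 6, 134920401 to 134925513, plus strand, mm10) had the largest change of the 10 genes against None with Kira8+Stattic, with Stattic and with Kira8. Its level was 339, 314 and 364 CPM in Kira8+Stattic, 274 and 357 CPM in Stattic, 208 and 201 CPM in Kira8 and 51.5, 45.9 and 83.7 CPM in None. No inhibitor library overlapped None, and both Kira8 libraries lay below every library with Stattic. Against None it rose 5.61-fold with Kira8+Stattic (2.49 ± 0.22, adjusted p = 5.04e-06), 5.23-fold with Stattic (2.39 ± 0.23, adjusted p = 1.53e-05) and 3.38-fold with Kira8 (1.76 ± 0.23, adjusted p = 0.000402). Adding Stattic to Kira8 raised it 1.66-fold (0.73 ± 0.24, adjusted p = 0.0355), a call that ended without any single Kira8+Stattic or Kira8 library (adjusted p 0.0586 to 0.182) and with scaling by library size alone (0.60, adjusted p = 0.0719). Stattic against Kira8 was not called (0.63 ± 0.26, adjusted p = 0.0865). With all 12 libraries the changes were 2.47 ± 0.79, 1.94 ± 0.77 and 1.24 ± 0.76 (adjusted p = 0.216, 0.219 and 0.500). On the 12-library scale Stattic replicate 2 held 63.7 CPM and Kira8 replicate 2 held 17.6 CPM, against 39.8 to 73.1 CPM in None, so neither outlying library shared the rise of its group.

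Cdkn1b is the gene with the steepest rise here, so the 250 bases before its RefSeq start are shown, read from the RefSeq promoter table of GRCm38.p6, the assembly also called mm10 (chr6:134920151-134920400, plus strand). Capitals mark CCAAT, the box bound by the factor NF-Y.
Cdkn1b: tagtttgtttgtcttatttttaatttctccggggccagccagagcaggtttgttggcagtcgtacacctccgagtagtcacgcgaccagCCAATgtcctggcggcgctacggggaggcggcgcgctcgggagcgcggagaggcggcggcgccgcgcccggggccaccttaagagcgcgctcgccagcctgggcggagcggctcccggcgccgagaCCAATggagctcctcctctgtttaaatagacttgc
The window holds 2 such boxes, counting both strands, and 10.1% of 32851 windows of this length hold at least 2. It holds no match to the FOXO motif GTAAACA, to the STAT motif TTCNNNGAA or to the MYC E-box CACGTG.

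Cdkn2c, an INK4 inhibitor (ENSMUSG00000028551, chromosome 4, 109660876 to 109667189, minus strand), stayed near a single level. It was 23.5, 24 and 27.9 CPM in Kira8+Stattic, 24 and 26.2 CPM in Stattic, 28.1 and 24.1 CPM in Kira8 and 31.5, 22.5 and 26.9 CPM in None, and the groups overlapped. Its log2 change against None was -0.10 with Kira8+Stattic (95% interval -0.45 to 0.25), -0.10 with Stattic (-0.50 to 0.29) and -0.05 with Kira8 (-0.44 to 0.35), with adjusted p = 0.656, 0.680 and 0.906. Within each library the ratio of Cdkn1b to Cdkn2c, per kilobase of exon, was 7.69 to 8.52 in Kira8+Stattic, 6.74 and 8.04 in Stattic, 4.36 and 4.92 in Kira8 and 0.965 to 1.84 in None. All 7 inhibitor libraries of the 10 lay above None in this ratio, while Stattic replicate 2, with 4 counts of Cdkn2c, had 82.0 and Kira8 replicate 2 had 1.35.

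Ccnd2, cyclin D2 (ENSMUSG00000000184, chromosome 6, 127125162 to 127152193, minus strand), was the most abundant of the 10 genes in None, at 137 ± 41.2 CPM per kilobase (SD). Its level was 287, 344 and 339.6 CPM in Kira8+Stattic, 294 and 328 CPM in Stattic, 674 and 806 CPM in Kira8 and 881, 1654 and 1326 CPM in None. The 3 treatments lay below None without overlap, and the libraries with Stattic lay lowest. Against None it fell 3.98-fold with Kira8+Stattic (-1.99 ± 0.21, adjusted p = 2.02e-05), 4.13-fold with Stattic (-2.05 ± 0.25, adjusted p = 6.84e-05) and 1.74-fold with Kira8 (-0.80 ± 0.24, adjusted p = 0.0329). It was lower in Kira8+Stattic than in Kira8 (-1.19 ± 0.23, adjusted p = 0.00209) and lower in Stattic than in Kira8 (-1.25 ± 0.26, adjusted p = 0.00372). The Kira8 call ended without either Kira8 library, without None replicate 2 or 3, or without Kira8+Stattic replicate 2 (adjusted p 0.0511 to 0.245). With all 12 libraries the changes against None were -2.0 ± 0.46, -2.14 ± 0.46 and -1.10 ± 0.45 (adjusted p = 0.109, 0.0833 and 0.373).

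Ccnd3, cyclin D3 (ENSMUSG00000034165, chromosome 17, 47505051 to 47599691, plus strand), behaved differently from Ccnd2. It was 222, 230.1 and 248 CPM in Kira8+Stattic, 237.5 and 232 CPM in Stattic, 86.1 and 82.7 CPM in Kira8 and 207, 135 and 179.8 CPM in None. The Kira8 libraries lay below all others of the 10, and the libraries with Stattic lay above None. With Kira8 alone it fell 2.06-fold (-1.04 ± 0.18, adjusted p = 0.00214). Against None its change was 0.42 ± 0.16 with Kira8+Stattic and 0.43 ± 0.18 with Stattic, and neither was called (adjusted p = 0.0502 and 0.0704; without None replicate 1, 0.00918 and 0.0135). Kira8+Stattic exceeded Kira8 2.77-fold (1.47 ± 0.19, adjusted p = 0.000183), and Stattic exceeded Kira8 2.78-fold (1.48 ± 0.20, adjusted p = 0.000316). Exons of Bysl, a ribosome biogenesis gene on the other strand, overlap 361 of the 8775 exon bases of Ccnd3. Bysl fell with Kira8+Stattic, Stattic and Kira8 (-2.17, -1.88 and -1.73), and whether the authors' counting used strand is not given in the sources used here.

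The proportion of the D cyclins to each other divided the libraries by Stattic. The ratio of Ccnd3 to Ccnd2 counts per kilobase, which does not depend on how libraries are scaled, was 0.717 to 0.829 in Kira8+Stattic, 0.865 and 0.758 in Stattic, 0.137 and 0.110 in Kira8 and 0.0875 to 0.252 in None. The 5 libraries with Stattic did not overlap the 5 without, while Kira8 lay inside the range of None. Stattic replicate 2, left out of the fit, had a ratio of 2.49, and Kira8 replicate 2 had 0.162.

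Cdk6 (ENSMUSG00000040274, chromosome 5, 3341485 to 3531008, plus strand), a kinase partner of the D cyclins that activated T cells express, separated the libraries by Stattic. Its level was 120, 79.3 and 74.4 CPM in Kira8+Stattic, 115 and 86.3 CPM in Stattic, 347 and 432 CPM in Kira8 and 379, 463 and 522 CPM in None. Libraries with Stattic lay below all others of the 10, and Kira8 overlapped None. Against None it fell 4.99-fold with Kira8+Stattic (-2.32 ± 0.22, adjusted p = 7.72e-06) and 4.51-fold with Stattic (-2.17 ± 0.25, adjusted p = 5.15e-05). With Kira8 its change was -0.22 ± 0.23 (adjusted p = 0.570). The difference between the single inhibitors was itself called, with Stattic 3.86-fold below Kira8 (-1.95 ± 0.26, adjusted p = 0.00033). With all 12 libraries Cdk6 came closest to a call of the 10 genes, at -2.34 ± 0.47 for Kira8+Stattic (adjusted p = 0.0695) and -2.50 ± 0.48 for Stattic (adjusted p = 0.0586), and Stattic replicate 2 held 37.2 CPM on that scale.

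Cdk4 (ENSMUSG00000006728, chromosome 10, 127063534 to 127067920, plus strand), the other cyclin D kinase, was lower with each treatment. Cdk4 fell by a smaller fold than Cdk6 where Stattic was present, and by a larger one with Kira8 alone, where Cdk6 was not called. It was 187, 154 and 172 CPM in Kira8+Stattic, 182 and 139.7 CPM in Stattic, 136 and 155 CPM in Kira8 and 260.1, 222 and 237 CPM in None. The treatments overlapped each other and none overlapped None. Against None it fell 1.40-fold with Kira8+Stattic (-0.49 ± 0.15, adjusted p = 0.0203), 1.49-fold with Stattic (-0.58 ± 0.17, adjusted p = 0.0175) and 1.65-fold with Kira8 (-0.72 ± 0.17, adjusted p = 0.0111). Leaving out a single library ended the call with Kira8+Stattic (without Kira8+Stattic replicate 2 or 3, adjusted p = 0.0941 and 0.0572), with Stattic (without Stattic replicate 3, 0.184) and with Kira8 (without Kira8 replicate 1 or 3, 0.142 and 0.0644). Exons of Tspan31 on the other strand overlap 641 of its 3249 exon bases, and Tspan31, at 21.8 to 38.9 CPM, rose with Kira8+Stattic and Stattic (0.47 and 0.62).

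The kinase balance followed the same division by Stattic. Cdk4 exceeded Cdk6 per kilobase by 6.74 to 9.98 times in Kira8+Stattic, 6.77 and 6.97 times in Stattic, 1.68 and 1.55 times in Kira8 and 1.96 to 2.95 times in None. The left-out Stattic replicate 2 had 12.6 and the left-out Kira8 replicate 2 had 1.14. In these ratios all 6 libraries with Stattic lay above all 6 without.

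**Figure D2:**
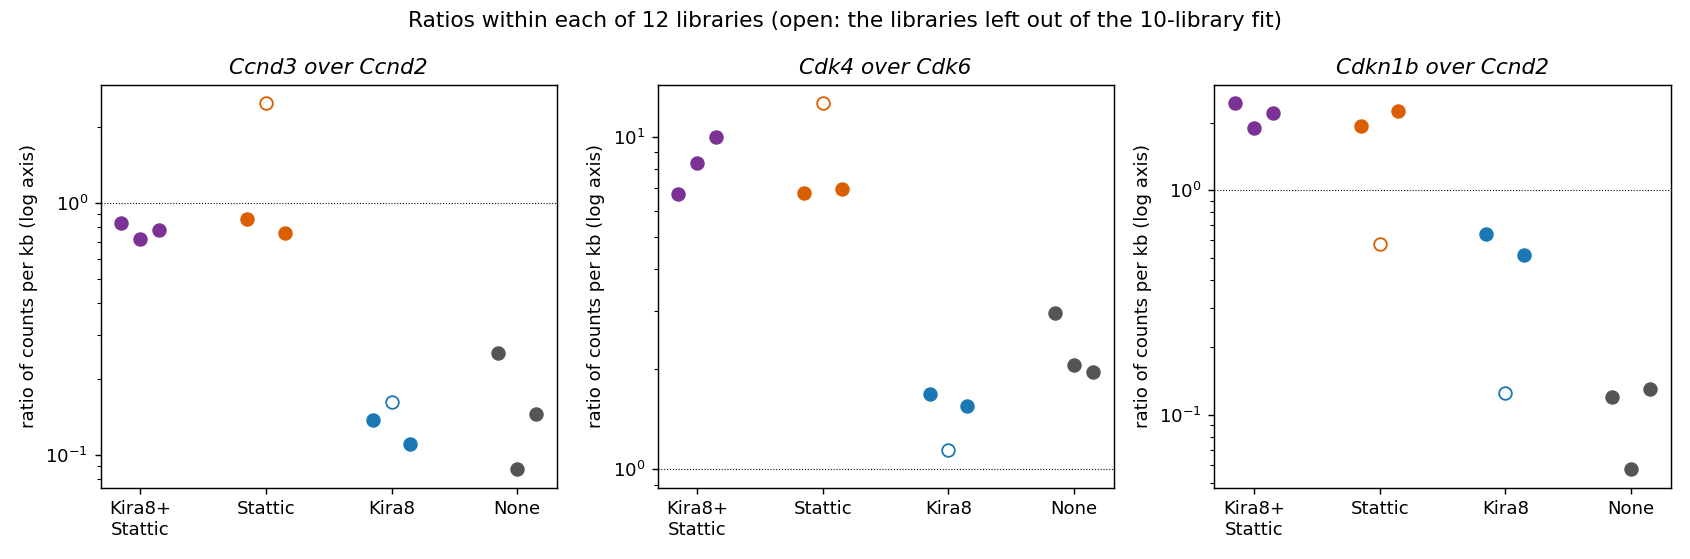
Ratios of counts per kilobase of exon within each of the 12 libraries, on log axes; filled points are the 10 libraries of the fit and open points the outlying pair. The Ccnd3 to Ccnd2 and Cdk4 to Cdk6 ratios are higher in each of the 6 libraries with Stattic than in any of the 6 without; the Cdkn1b to Ccnd2 ratio is 1.89 to 2.44 in Kira8+Stattic and 0.0574 to 0.130 in None.

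The 250 bases before the RefSeq start of Cdk4 are shown because E-boxes, the sites of MYC with its partner MAX, repeat there and Myc was among the genes that changed (chr10:127063285-127063534, plus strand, GRCm38.p6). Capitals mark the E-box CACGTG, which reads the same on both strands.
Cdk4: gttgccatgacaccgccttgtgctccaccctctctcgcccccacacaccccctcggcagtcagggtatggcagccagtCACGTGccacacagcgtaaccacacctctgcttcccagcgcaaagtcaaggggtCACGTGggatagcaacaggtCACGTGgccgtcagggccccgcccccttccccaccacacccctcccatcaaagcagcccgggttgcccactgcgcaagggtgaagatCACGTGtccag
The window holds 4 E-boxes. Of 32851 windows 1978, or 6.02%, hold at least 1, and 7, or 0.0213%, hold 4 or more. Among the 7 of the 10 genes with an entry in the table, Cdk6 held 1 E-box and Ccnd3 1 FOXO motif, and none held a STAT motif or any of the E2F motifs TTTGGCGC, TTTCCCGC, TTTCGCGC and TTTGCCGC on either strand. The windows of E2f1, Cdkn2c and Cdk6, and another window of Ccnd3, lie inside the annotated span of their genes. For E2f1, Cdkn2c and Cdk6 the bases before the outermost annotated start were thus not searched. A match is a description of these letters and not of binding. Myc was 130 ± 12.4 CPM in Kira8+Stattic, 177 ± 3.75 in Stattic, 178 ± 21.1 in Kira8 and 496 ± 99.9 in None (SD, n = 3, 2, 2 and 3), and fell with Kira8+Stattic (-1.93 ± 0.17, adjusted p = 5.47e-06), with Stattic (-1.48 ± 0.20, adjusted p = 0.000123) and with Kira8 (-1.48 ± 0.20, adjusted p = 0.000438).

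The E-type cyclins, which bind CDK2 later in G1, did not move together. Ccne1 (ENSMUSG00000002068, chromosome 7, 38097984 to 38107534, minus strand) was 40.8, 34.5 and 43.5 CPM in Kira8+Stattic, 37.4 and 36.6 CPM in Stattic, 20.6 and 21.4 CPM in Kira8 and 34.0, 32.3 and 34.5 CPM in None. The Kira8 libraries lay below all others of the 10, the Stattic libraries lay above None, and Kira8+Stattic overlapped None. Ccne1 fell 1.6-fold with Kira8 (-0.68 ± 0.15, adjusted p = 0.00847), a call that ended without either Kira8 library (adjusted p = 0.0988 and 0.0834). Its change was 0.24 ± 0.13 with Kira8+Stattic (adjusted p = 0.181) and 0.14 ± 0.15 with Stattic (adjusted p = 0.493; -0.02 when libraries were scaled by size alone). It was 1.89-fold higher in Kira8+Stattic than in Kira8 (0.92 ± 0.15, adjusted p = 0.000955) and 1.76-fold higher in Stattic than in Kira8 (0.82 ± 0.16, adjusted p = 0.00344).

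Ccne2 (ENSMUSG00000028212, chromosome 4, 11191351 to 11204779, plus strand) was 54.9, 54.4 and 59.4 CPM in Kira8+Stattic, 57.2 and 77.1 CPM in Stattic, 47.2 and 45.2 CPM in Kira8 and 37.2, 44.8 and 52.2 CPM in None. The libraries with Stattic lay above the rest of the 10, and Kira8 lay inside the range of None. It rose 1.5-fold with Stattic (0.59 ± 0.18, adjusted p = 0.0203). That call ended without Stattic replicate 3 (0.35, adjusted p = 0.252) and with scaling by library size alone (0.43, adjusted p = 0.0719). It also ended with only the groups compared in the fit (0.57, adjusted p = 0.0688). Its change was 0.33 ± 0.16 with Kira8+Stattic (adjusted p = 0.121) and 0.05 ± 0.18 with Kira8 (adjusted p = 0.904). With all 12 libraries the Stattic change was 1.37 ± 0.48 (adjusted p = 0.192), and Stattic replicate 2 held 188 CPM on that scale. Exons of Ints8 on the other strand cover 609 of its 3495 exon bases, and Ints8 fell with Kira8+Stattic and Stattic (-0.88 and -0.87).

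Rb1, which encodes the pocket protein RB (ENSMUSG00000022105, chromosome 14, 73183673 to 73325822, minus strand), was modestly higher with each treatment. It was 93.2, 94.0 and 103 CPM in Kira8+Stattic, 102 and 114 CPM in Stattic, 101 and 89.0 CPM in Kira8 and 65.2, 70.0 and 63.9 CPM in None. All 7 inhibitor libraries of the 10 lay above None and overlapped among themselves, except that Stattic lay above Kira8. Rb1 rose 1.46-fold with Kira8+Stattic (0.54 ± 0.13, adjusted p = 0.00429), 1.63-fold with Stattic (0.70 ± 0.14, adjusted p = 0.00177) and 1.43-fold with Kira8 (0.51 ± 0.14, adjusted p = 0.0219). The Kira8 call ended without either Kira8 library or None replicate 3 (adjusted p 0.0546 to 0.225), and with all 12 libraries the change was -0.003 ± 0.74 (adjusted p = 1). Kira8 replicate 2 held 43 counts of Rb1 and Stattic replicate 2 held 146, against 4226 to 7991 in the other 10 libraries. Rcbtb2 and Lpar6, on the other strand, share 488 and 408 of its 6015 exon bases. Lpar6, at 6.94 to 20.9 CPM, rose with Kira8+Stattic (1.00, adjusted p = 0.00183) and with Stattic (1.28, adjusted p = 0.000744), as Rb1 did, and its part in the Rb1 counts was not tested.

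E2f1, which encodes the factor that RB restrains (ENSMUSG00000027490, chromosome 2, 154559407 to 154569892, minus strand), was not called in any comparison. It was 35.9, 29.2 and 26.2 CPM in Kira8+Stattic, 27.1 and 20 CPM in Stattic, 28.3 and 24.4 CPM in Kira8 and 27.6, 28.6 and 41.9 CPM in None. Its log2 change against None was -0.10 with Kira8+Stattic (95% interval -0.54 to 0.34), -0.47 with Stattic (-0.97 to 0.02) and -0.31 with Kira8 (-0.80 to 0.18), with adjusted p = 0.721, 0.120 and 0.386. In Kira8 replicate 2 it had 0 counts of 19.8 M, which allows up to 0.151 counts per megacount by counting error alone, before TMM scaling. The TMM factor of that library was 0.253 in the 12-library fit, so the bound is higher in scaled CPM.

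**Figure D3:**
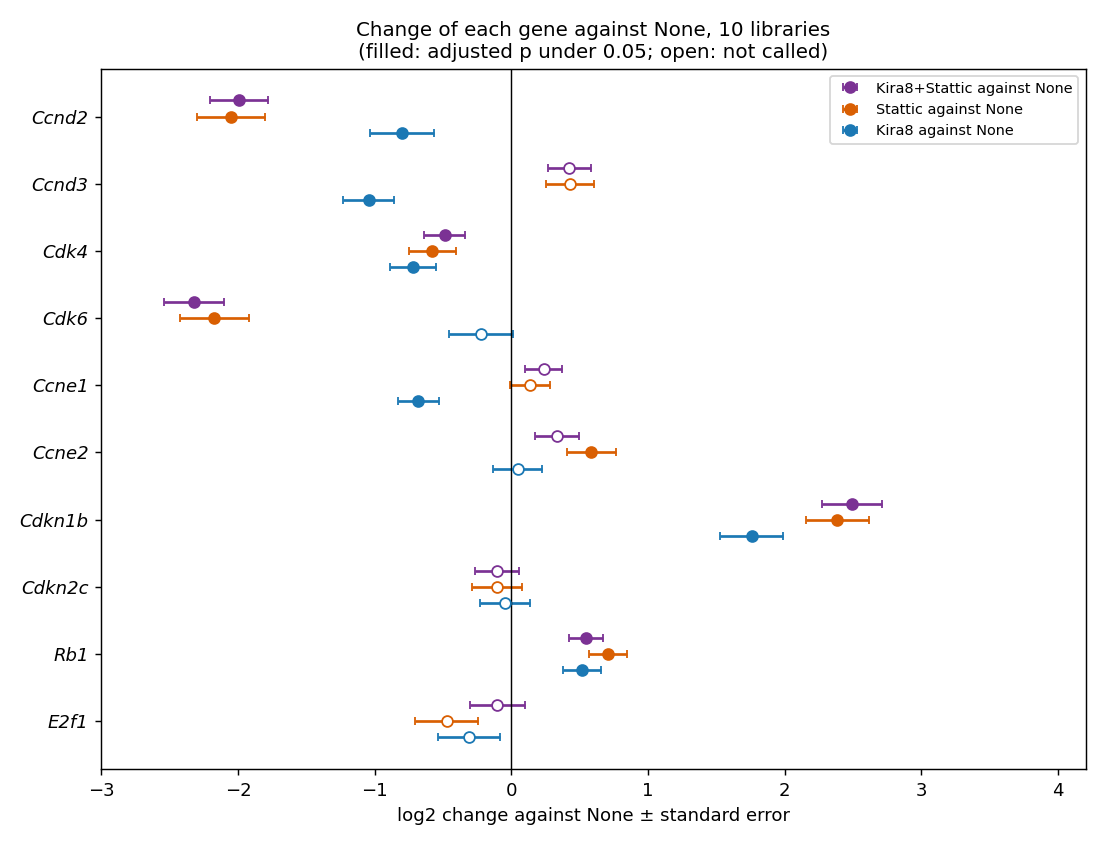
Log2 change of each gene against None, with standard errors, for Kira8+Stattic, Stattic and Kira8 in the 10-library fit; filled points had an adjusted p under 0.05. Cdkn1b lies at 1.76 to 2.49 in the 3 comparisons, Cdk6 at -2.32 and -2.17 with Stattic present and -0.22 with Kira8, and Ccnd3 at -1.04 with Kira8.

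Set side by side per kilobase of exon, the order of the transcripts differed between treatments. In None, Ccnd2 (137 ± 41.2), Cdk4 (73.8 ± 5.89) and Cdk6 (32.5 ± 5.11 CPM per kilobase, SD, n = 3) were highest, and the other 7 genes lay between 10.0 and 19.8. With Kira8, Ccnd2 (78.7 ± 9.90) still led, and Cdkn1b (44.9 ± 1.02) and Cdk4 (44.8 ± 4.29, n = 2) did not differ beyond their spread. With Stattic, Cdkn1b (69.3 ± 12.8) was followed by Cdk4 (49.4 ± 9.11), Ccnd2 (33.1 ± 2.56) and Ccnd3 (26.8 ± 0.440), and Cdk6 was lowest (7.21 ± 1.48, n = 2). With Kira8+Stattic, the order of the first 4 was the same, at 74.4 ± 5.52, 52.6 ± 5.16, 34.4 ± 3.35 and 26.6 ± 1.5, and Cdk6 was again lowest, at 6.51 ± 1.77 (n = 3). Ccne1, Ccne2, Rb1, E2f1 and Cdkn2c lay between 7.46 and 19.2 CPM per kilobase in all groups, and the last 2 of them between 7.46 and 10.4.

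The combination was compared with each inhibitor to ask what the second agent adds. Added to Kira8, Stattic changed 5 of the 10 genes, 3 higher (Ccnd3, Ccne1 and Cdkn1b) and 2 lower (Cdk6, -2.10 ± 0.23, adjusted p = 7.54e-05, and Ccnd2), beside 30.7% of all genes (14.7% higher and 16% lower). Stattic against Kira8 gave 4 calls, Ccnd3 and Ccne1 higher and Ccnd2 and Cdk6 lower, beside 28.7% of all genes (13.7% higher and 15.1% lower). Added to Stattic, Kira8 changed 0 of the 10 genes in edgeR, 0 also at an unadjusted p under 0.05, and 0 with DESeq2 or limma voom, beside 0.0141% of all genes called in edgeR and 4.12% at an unadjusted p under 0.05. The largest of these 10 differences was 0.37 for E2f1 (95% interval -0.12 to 0.87). The interval for Cdkn1b was -0.40 to 0.61, for Ccnd2 -0.45 to 0.56, for Ccnd3 -0.39 to 0.38 and for Cdk6 -0.65 to 0.36 on the log2 scale, and values within those bounds remain compatible with the data.

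The change with Kira8 differed with and without Stattic for 3 genes in the interaction test, 2 with a positive difference and 1 with a negative one, beside 8.52% of all genes (4.55% and 3.97%). Cdkn1b changed by 0.10 ± 0.23 with Kira8 in the presence of Stattic and by 1.76 ± 0.23 in its absence, a difference of -1.66 ± 0.32 (adjusted p = 0.0108). For Ccnd3 the values were -0.01 ± 0.18 and -1.04 ± 0.18, a difference of 1.04 ± 0.25 (adjusted p = 0.0279). For Ccne1 they were 0.10 ± 0.15 and -0.68 ± 0.15, a difference of 0.78 ± 0.21 (adjusted p = 0.0433). Cdk4 (0.81 ± 0.24, adjusted p = 0.0560) and Rb1 (-0.67 ± 0.20, adjusted p = 0.0548) lay just outside the threshold. The Cdkn1b call ended without Stattic replicate 3 or Kira8 replicate 1 (adjusted p = 0.0552 and 0.0535). The Ccnd3 call ended without any Stattic or Kira8 library or Kira8+Stattic replicate 2 or 3 (adjusted p 0.0606 to 0.129), and the Ccne1 call without any single library except Kira8+Stattic replicate 2 and None replicate 1 (0.0517 to 0.180). In the 12-library fit the differences were -0.70 ± 1.05 for Cdkn1b, 0.64 ± 0.63 for Ccnd3 and 1.46 ± 0.71 for Ccne1 (adjusted p = 0.830, 0.730 and 0.329).

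**Figure D4:**
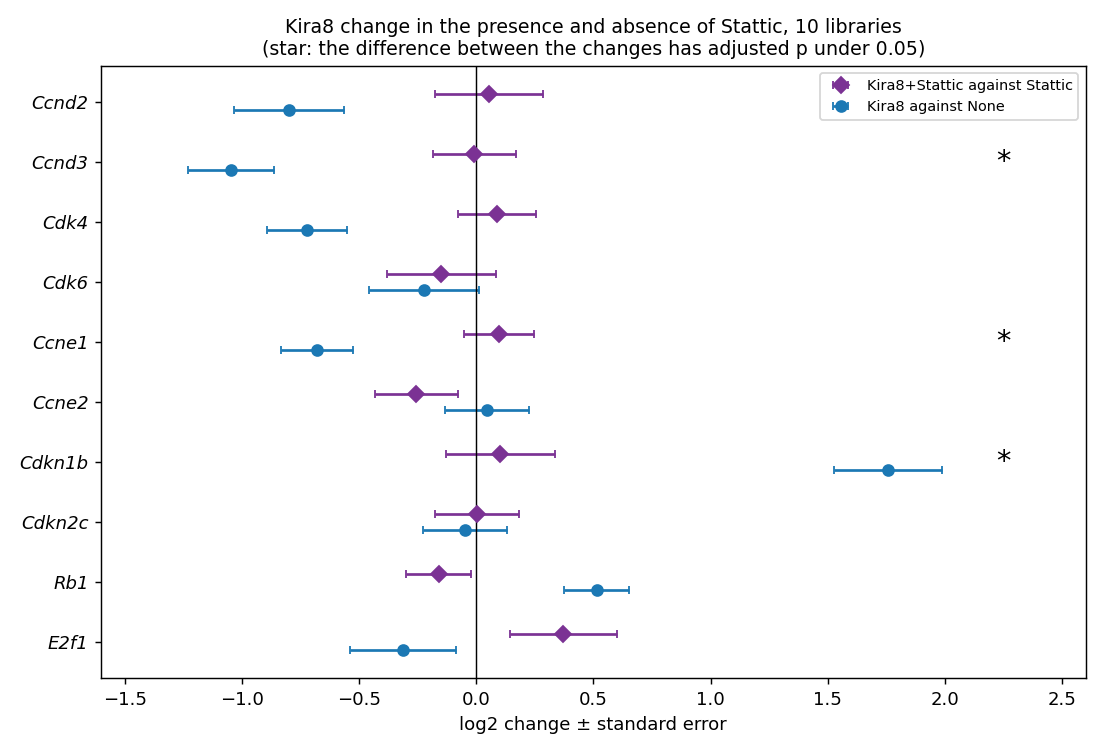
Log2 change given by Kira8 in the presence of Stattic (Kira8+Stattic against Stattic, diamonds) and in its absence (Kira8 against None, circles), with standard errors; stars mark genes whose 2 changes differed by the interaction test. The diamonds lie between -0.26 and 0.37, and the circles between -1.04 for Ccnd3 and 1.76 for Cdkn1b.

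Other regulators of G1 were followed as a list of 30 genes, all of which passed the filter. With Kira8+Stattic 8 rose, 11 fell and 11 were not called, where 20.8% of all genes rose and 20% fell. With Stattic 6 rose, 12 fell and 12 were not called, beside 20.1% and 18.9% of all genes. With Kira8 3 rose, 8 fell and 19 were not called, beside 9.7% and 9.59%. The median log2 change was -0.10, -0.19 and -0.20, beside 0.09, 0.08 and 0.00 for all genes. The other genes of the p21 family rose with Stattic. Cdkn1c, which encodes p57, was 15.7 ± 3.80 CPM in Kira8+Stattic, 10.7 ± 1.39 in Stattic, 1.63 ± 0.320 in Kira8 and 1.34 ± 0.494 in None, a change of 3.56 ± 0.32 with Kira8+Stattic and 3.00 ± 0.33 with Stattic (adjusted p = 5.16e-06 and 3.20e-05). Cdkn1a, which encodes p21, was 223 ± 47.7, 259 ± 4.59, 116 ± 26.0 and 80.5 ± 6.78 CPM in the same order of groups, and rose 2.78-fold with Kira8+Stattic and 3.22-fold with Stattic (adjusted p = 5.71e-05 and 5.26e-05), with a change of 0.53 ± 0.20 with Kira8 that was not called (adjusted p = 0.0820). Of the INK4 genes on the list, Cdkn2d rose 2.08-fold with Kira8+Stattic and 2.19-fold with Stattic (adjusted p = 0.000349 and 0.000488). Cdkn2b rose 5.40-fold with Kira8+Stattic (adjusted p = 0.0285) and was not called with Stattic. Neither was called with Kira8, and Cdkn2a was not called in any of these comparisons. Mdm2, the ubiquitin ligase of p53, rose 3.40-fold with Kira8+Stattic, 3.18-fold with Stattic and 1.99-fold with Kira8 (adjusted p = 2.87e-05, 9.74e-05 and 0.00659).

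Tfdp1, the DNA-binding partner DP1, was 84.4 ± 20.2 CPM in Kira8+Stattic, 73.3 ± 8.77 in Stattic, 136 ± 2.18 in Kira8 and 286 ± 14 in None, 3.39-fold, 3.90-fold and 2.11-fold lower than None (adjusted p = 1.01e-05, 2.13e-05 and 0.00243). E2f4, which encodes a repressor E2F, fell 2.17-fold with Kira8+Stattic, 2.63-fold with Stattic and 1.61-fold with Kira8 (adjusted p = 9.23e-05, 7.22e-05 and 0.0121). E2f5 also fell in each comparison (-1.24, -1.36 and -0.85). E2f3, E2f6 and E2f8 fell with Kira8+Stattic and with Stattic and were not called with Kira8. E2f2, E2f7 and Tfdp2, like E2f1, were not called in any of these comparisons, and no gene of the family was called higher. Ccnh, a subunit of the kinase that activates CDKs, fell 1.92-fold with Kira8 (adjusted p = 0.0046) and was not called with Kira8+Stattic or Stattic. Foxo3, which encodes a factor that promotes quiescence, rose 1.54-fold with Kira8+Stattic and 2.43-fold with Kira8 (adjusted p = 0.0407 and 0.00341), and was not called with Stattic (0.31 ± 0.25, adjusted p = 0.344).

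Target genes of E2F were followed as a list of 25, all tested. With Kira8 0 rose, 14 fell and 11 were not called, beside 9.7% higher and 9.59% lower of all genes, and the list's median log2 change was -0.54. With Stattic 4 rose, 9 fell and 12 were not called (median -0.29), beside 20.1% and 18.9% of all genes. With Kira8+Stattic 8 rose, 10 fell and 7 were not called (median -0.23), beside 20.8% and 20%, and the median of all genes was 0.00, 0.08 and 0.09 in the same order. The summed level of the 25 genes was 3701 to 3823 CPM in Kira8+Stattic, 3710 and 3412 in Stattic, 2802 and 2677 in Kira8 and 3657 to 4765 in None, so only the Kira8 libraries stood wholly below the rest. Orc1, which encodes a subunit of the origin recognition complex, fell 2.99-fold with Kira8 (-1.58 ± 0.20, adjusted p = 0.000372) and rose 1.62-fold with Kira8+Stattic (0.69 ± 0.17, adjusted p = 0.00655). With Kira8 the helicase genes Mcm2, Mcm4 and Mcm3 fell 2.22-fold, 2.0-fold and 1.79-fold. With Stattic the genes with the smallest adjusted p were Rrm2, a subunit of ribonucleotide reductase (-1.5 ± 0.15), the flap nuclease gene Fen1 (-1.35 ± 0.21), Slbp, whose product binds histone mRNA and which rose (0.89 ± 0.15), and Uhrf1 (-1.37 ± 0.24). With Kira8+Stattic, Cdc45, a part of the replicative helicase, fell 1.70-fold (-0.76 ± 0.13, adjusted p = 0.000702), close to its change with Stattic (-0.73 ± 0.15, adjusted p = 0.0026).

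**Figure D5:**
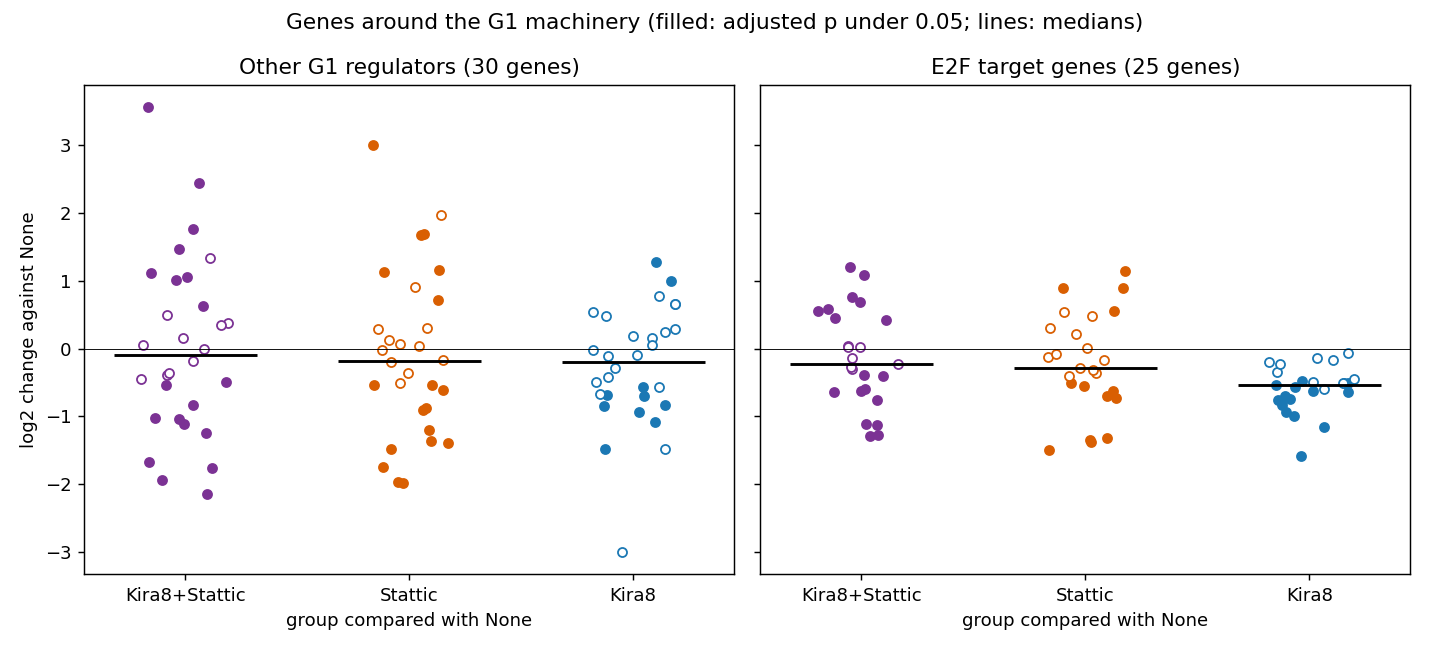
Log2 change against None of the 30 other G1 regulators and the 25 E2F target genes in each comparison; filled points had an adjusted p under 0.05 and lines are medians. The E2F targets lie lowest with Kira8, at a median of -0.54, and Cdkn1c lies highest of the G1 regulators, at 3.56 with Kira8+Stattic and 3.00 with Stattic.

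Genes with the pattern most like each member were sought among those with a mean of at least 5 CPM, by the root mean square distance between log2 levels centred over the 10 libraries. Genes that both change little lie close by this distance, so it depends on the size of change as well as on the pattern. Rb1 had the closest match of all, Odr4 at 0.0581, and Cdk4 the next, the prohibitin gene Phb2 at 0.0661. Ccnd2 was closest to Tgs1 (0.148), Esf1 (0.151) and Urb2 (0.163), and Cdk6 to Emc1 (0.171). Ccne1 was closest to Nans (0.0839), Rpa2 (0.101) and Ss18l2 (0.102), and E2f1 to Carmil2 (0.105), Bub1b (0.131) and Chaf1a (0.142). Among the 10 genes themselves, the closest pair was Ccne2 and Rb1 (0.209), followed by Ccnd3 and Ccne1 (0.273), both of which were lowest in Kira8.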

How the data were processed

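The deposited table holds raw read counts per Ensembl gene, whole numbers for 55401 genes in 12 libraries, which the authors made on genome build mm10, per the submitters' processing notes. Which aligner, counting program and annotation were used, and whether counting used strand, is not given in the sources used here. Columns were matched to samples by title. Symbols, positions and exon lengths came from GENCODE M21 (mm10), and 250 bases before transcript starts from RefSeq (GRCm38.p6). The 10 genes and the lists were chosen with earlier results of these data known, as was the 10-library fit, which leaves out Kira8 replicate 2 and Stattic replicate 2. Genes were kept by edgeR's filterByExpr (version 4.0.16, R 4.3.3), scaled by TMM and tested with glmQLFit and glmQLFTest in a single fit of 4 groups, with Benjamini-Hochberg adjustment over all genes tested (21239 in 10 libraries, 20993 in 12), in 7 comparisons. The fit was tested on simulated data. Intervals of log2 changes use the fit's total degrees of freedom, and the standard error is the change divided by the square root of F. Named genes are all 10 members and, per list and comparison against None, up to 4 called genes with the smallest adjusted p. Part of these is named, and other genes of the E2F and INK4 families are named beside them. Alternatives were DESeq2 (1.42.0), limma voom (3.58.1), other scalings and filters, a replicate block, only the groups compared, and each library left out. Replicates were checked for copies with chi-square tests over genes, and the lowest chi-square per gene was 30.0. Of the search for genes of like pattern, part is not reported here.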

Additional observations from a re-analysis of the deposited data

Results flagged for a closer look

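The change given by Kira8 differed with and without Stattic, by the interaction test, for 3 of the 10 genes. The difference was -1.66 for Cdkn1b, 1.04 for Ccnd3 and 0.78 for Ccne1 on the log2 scale (edgeR adjusted p = 0.0108, 0.0279 and 0.0433). In each case Kira8+Stattic lay close to Stattic alone, within 0.10, 0.01 and 0.10 of it in absolute log2 change. No group had the 4 libraries that a check for single outlying values needs.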

How the results depend on the processing

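With all 12 libraries in edgeR the number of the 10 genes called was 0 in every comparison, against 6 with 10 libraries for Kira8 and 6 for Stattic against None, 5 for Kira8+Stattic against None, 5 for Kira8+Stattic against Kira8, 4 for Stattic against Kira8, 3 for the interaction and 0 for Kira8+Stattic against Stattic; common dispersion was 1.01 against 0.143. Rb1 with Kira8 turned to -0.0029 there. The interaction count was 6 with DESeq2 and 5 when genes needed over 1 CPM in at least 2 libraries. Leaving out each library in turn gave 2 to 6 calls with Kira8, 4 to 7 with Stattic, 4 to 6 with Kira8+Stattic, 4 to 5 for Kira8+Stattic against Kira8, 4 to 6 for Stattic against Kira8, 0 to 4 for the interaction and 0 to 0 for Kira8+Stattic against Stattic. All genes called against None fell to 0 with Kira8, 65 with Stattic and 57 with Kira8+Stattic in the 12 libraries, against 4097, 8281 and 8676. Over all genes, leaving out Kira8 replicate 1 or 3 gave 1802 and 1642 calls with Kira8, 3579 and 3270 for Kira8+Stattic against Kira8 (6514 with 10 libraries, 0 with 12), and 3471 and 3180 for Stattic against Kira8 (6106 and 0; 4040 without Stattic replicate 3). The interaction gave 1810 calls over all genes, 0 with 12 libraries, 3179 with DESeq2 and 498 to 1144 without Kira8+Stattic replicate 2 or 3, Stattic replicate 3 or a Kira8 library. Kira8+Stattic against Stattic gave 3, and 0 to 51 in the alternatives. Replicate numbers are shared by the groups, and same-numbered libraries deviated together weakly, with a positive r in all 13 pairs (0.0166 to 0.218). The pairs are not independent, because 2 libraries of a group deviate by equal and opposite amounts. These values thus cannot decide whether replicates were paired, and the main fit took no pairing. With the replicate block 6, 6 and 6 of the 10 genes were called with Kira8, Stattic and Kira8+Stattic. With Kira8 the block fit also called more of all genes than the 4097 of the main fit. Its shares of all genes are not given here, so these counts do not show that the 10 genes stand out. The interaction gave 4 with the block, where Cdk4 joined (0.93, adjusted p = 0.0386). Ccnd3 with Kira8+Stattic, not called at adjusted p = 0.0502, was called with DESeq2 (0.0150), limma voom (0.0302), RLE scaling (0.0395), the 1 CPM filter (0.0265), 12 libraries with quality weights (0.0199) and the block (0.0294), and with Stattic (0.0704) it was called with DESeq2 (0.0302), limma voom (0.0492) and the 1 CPM filter (0.0364). Stattic against Kira8 for Cdkn1b, not called, was called with DESeq2 (0.0363), that filter (0.0480), the block (0.0414) and only the groups compared (0.0330). Fits of only the groups compared ended the edgeR calls of Ccnd2 with Kira8 (0.0621) and of Ccne2 and Cdk4 with Stattic (0.0688 and 0.0557). The Ccne1 interaction call ended in edgeR without a filter on low counts (0.0729). It also ended in limma voom of 12 libraries with quality weights (0.0714), as did the Rb1 call with Kira8 (0.0628). Scaling by library size alone moved the median change of all genes with Stattic to -0.08, against 0.08, and no called change of the 10 genes turned sign under it. Depth did not limit the 10 libraries, where a count of 3 is 0.0349 to 0.0581 CPM before TMM scaling.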
